A study of Homo sapiens with 6 samples.

Results

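Acute phase proteins are plasma proteins whose output by the liver changes during inflammation, and 10 of their genes outside the coagulation system were taken here by symbol: SERPINA1, SERPINA3, CP, CRP, SAA1, SAA2, HP, ORM1, LBP and HAMP. Of these, 9 were analysed among the 23344 genes of the deposited table, and CRP was not analysed here. RNA was sequenced from Huh7, an established human liver cancer line, after treatment with lentivirus made in 293T cells and given with polybrene, which aids viral entry, carrying a control construct (shNC) or 1 construct, sh2, directed at VersicanV1, an isoform of the matrix proteoglycan versican, whose gene is VCAN. Each group had 3 libraries, called control and knockdown replicates 1, 2 and 3 below, and where 3 values are given for a group they follow that order. Nothing in the labels says whether these came from separate cultures, so the p-values measure the spread between libraries, which may be technical. All 6 libraries come from a single line, and the knockdown from a single hairpin label.

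In the classical acute phase response, interleukin-6 and its relatives signal through the shared receptor subunit gp130 and the transcription factor STAT3, while interleukin-1 and tumour necrosis factor signal through NF-kB. Both routes act on hepatocyte promoters together with C/EBP and other liver factors, and they raise proteins such as serum amyloid A, haptoglobin and the serpins. Hepcidin, the product of HAMP, is the hormone that blocks iron export from cells, and it is driven by BMP and SMAD signals as well as by STAT3. Transcript levels are given as FPKM, a value scaled to transcript length and to library size, and the number of reads behind them is unknown. In bulk RNA, fewer cells that express a gene and less RNA per cell cannot be told apart.

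VCAN, the targeted gene, stood at 4.79, 6.24 and 8.10 FPKM in the controls and at 1.90, 1.74 and 1.64 after knockdown (log2 change -1.39, limma adjusted p = 0.0103). The table does not separate versican isoforms. Hepatocyte genes were abundant in all libraries, with ALB between 3128 and 4006 FPKM. Of 10 hepatocyte markers, 3 rose and 1 fell (TTR). Those that rose were FGB, APOA1 and APOH, the last a phospholipid-binding plasma protein gene (log2 change 0.56, limma adjusted p = 0.0396). Without control replicate 2 or 3, or knockdown replicate 2 or 3, 0 rose. The count that rose was 2 without control replicate 1 and 3 without knockdown replicate 1, and 1 fell in each of these fits. With no filter on low values, with a replicate block, and with neither trend nor robust moderation, 1 rose and 1 fell. Over all genes tested, limma called 4.15% higher and 3.94% lower, the shares to set beside this count and the leukocyte count below. The 13 mitochondrially encoded protein genes took 16.0% to 19.2% of the summed values in control and 23.8% to 31.2% in knockdown libraries. Of the 11 leukocyte markers in the table, those other than CD14 and LYZ summed to 70.0 FPKM in knockdown replicate 2 and to between 3.32 and 6.23 in the other libraries. In that library S100A8 was at 17.9 FPKM and PTPRC at 1.96, against 0 and at most 0.16 elsewhere. The part of the leukocyte transcripts and of the mitochondrial share in the differences below was not tested. CD14 and LYZ were set apart after their values were seen, since both were high in all libraries. CD14, a co-receptor for bacterial lipopolysaccharide, ranged from 45.6 to 72.5 FPKM with overlapping groups. LYZ, the lysozyme gene, was at 18.3, 24.7 and 24.8 FPKM in the controls and at 44.5, 68.2 and 37.8 after knockdown, higher in all 3 knockdown libraries (log2 change 1.08, limma adjusted p = 0.0277). It was the 1 marker that rose among 4 leukocyte markers tested, and 0 fell; without knockdown replicate 2, and without any single control library, 0 of the 4 rose.

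SERPINA3 and CP rose in the knockdown libraries, and the most abundant genes of the set, ORM1 and SERPINA1, did not pass the test. Of 9 genes analysed, 8 had at least 1 FPKM in at least 3 libraries and were tested. With limma and an adjusted p below 0.05, 2 of them rose and 0 fell, where 4.15% of all genes tested were called higher and 3.94% lower. At an unadjusted p below 0.05, 3 were higher (13.4% of all genes tested) and 1 was lower (16%). Every knockdown library lay above every control library for SERPINA3 and CP, 2 of the 8 (14.4% of all genes tested) and below for SAA2, 1 of the 8 (18.7%). The median log2 change of the 8 genes was 0.15, against -0.03 over all 13696 genes tested. Without control replicate 2 the count that rose was 0 and the median of the 7 genes then tested 0.42; without knockdown replicate 1 these were 3 and 0.48. HAMP was under the filter in both fits. The fit without control replicate 2 called 56 genes in all and the one without knockdown replicate 1 called 3284, against 1107 with all libraries. Of all calls 51.3% were higher, and this share was 77.3% when libraries were scaled without mitochondrially encoded genes, which raised the median change of all genes by 0.10, 39.2% when they were scaled to an equal total and 61.9% with neither trend nor robust moderation. SERPINA3 and CP passed in each of these 3 fits.

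**Figure D1:**
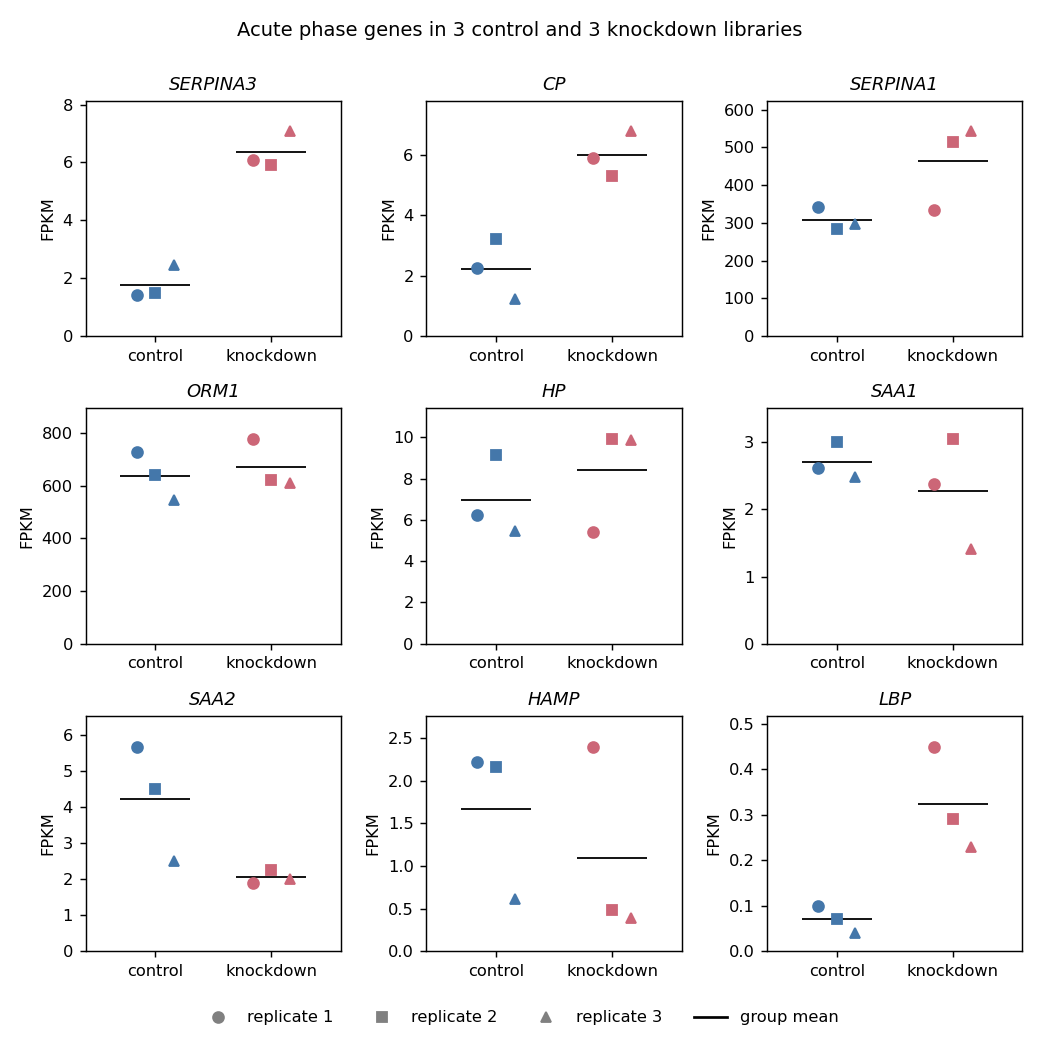
Level of each of the 9 genes in FPKM (linear axis from 0, a separate scale per gene) in control and knockdown libraries, with 1 symbol per replicate and a line at the group mean. SERPINA3 and CP lie higher in all 3 knockdown libraries, SAA2 lies lower in all 3, and for SERPINA1 and HP knockdown replicate 1 stays at the level of the controls.

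SERPINA3 encodes alpha-1-antichymotrypsin, an inhibitor of neutrophil cathepsin G. It was at 1.41, 1.48 and 2.44 FPKM in the controls and at 6.10, 5.91 and 7.08 after knockdown. The lowest knockdown value was above the highest control value, and the 3 knockdown libraries lay close together. The mean went from 1.78 ± 0.58 (SD, n = 3) to 6.36 ± 0.63 FPKM, 3.58 times the control mean. On the log2(FPKM + 1) scale used for every change here, which understates the change of weakly expressed genes, the rise was 1.42 (SE 0.18, limma adjusted p = 0.0100). It passed in 12 of 13 alternatives, with an adjusted p from 0.00251 to 0.0508. The exception was the fit without control replicate 2 (1.35, adjusted p = 0.0508). Without knockdown replicate 2 the rise was 1.47 (adjusted p = 0.0449).

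CP encodes ceruloplasmin, the copper-carrying ferroxidase of plasma. Its level was 2.24, 3.20 and 1.21 FPKM in the controls, and 5.90, 5.31 and 6.79 after knockdown. The groups did not overlap, although control libraries spanned a wider range of FPKM than knockdown libraries did. The mean was 2.22 ± 1.00 (SD, n = 3) in the controls and 6.00 ± 0.75 after knockdown, 2.71 times the control mean (log2 change 1.17, SE 0.24, limma adjusted p = 0.0277). CP passed in 6 of 13 alternatives. Among those in which it did not pass, the adjusted p was 0.0717 when low values were not filtered and 0.0529 with a replicate block. Others included the fits without control replicate 1 (0.0779), 2 (0.0517) or 3 (0.0580) or knockdown replicate 2 (0.0734) or 3 (0.0844), while its log2 change stayed between 0.92 and 1.49 over all 13.

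SERPINA1 encodes alpha-1-antitrypsin, the main plasma inhibitor of neutrophil elastase. Its values were 343, 283 and 297 FPKM in the controls, and 333, 515 and 543 after knockdown. Knockdown replicates 2 and 3 were above all controls, while knockdown replicate 1 lay within the control range. The mean was 308 ± 31.3 (SD, n = 3) and 463 ± 114, and the difference did not pass (log2 change 0.56, SE 0.19, 95% interval 0.14 to 0.99, limma adjusted p = 0.0920). Without knockdown replicate 1 the change was 0.78 with an adjusted p of 0.00286, in a fit that called 3284 of 13408 genes. Without knockdown replicate 2, the library with the leukocyte transcripts, it was 0.47 (adjusted p = 0.250).

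ORM1 encodes orosomucoid (alpha-1-acid glycoprotein), a carrier of basic drugs, and was the most highly expressed of the 9 genes. It was at 727, 642 and 545 FPKM in the controls, and at 778, 623 and 609 after knockdown. The groups overlapped, and replicate 1 was the highest library of each. The log2 change was 0.07 (95% interval -0.26 to 0.40, limma adjusted p = 0.782), and its sign turned with scaling to an equal total (-0.003), without control replicate 3 (-0.04) and without knockdown replicate 1 (-0.04). Without knockdown replicate 2 it was 0.12. Its neighbour ORM2, whose longest open reading frame is 94.9% identical over 606 bases, had 265 ± 39.1 and 276 ± 32.9 FPKM (0.06, adjusted p = 0.806). With such likeness, reads of the 2 genes may have been split between them. The ratio of ORM1 to ORM2 was between 2.30 and 2.50 in the 6 libraries.

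HP encodes haptoglobin, which binds free haemoglobin. Its level was 6.21, 9.16 and 5.47 FPKM in the controls, and 5.42, 9.92 and 9.89 after knockdown. As with SERPINA1, knockdown replicate 1 was low among the knockdown libraries, and here the knockdown values lay on both sides of the control values (log2 change 0.23, 95% interval -0.34 to 0.80, limma adjusted p = 0.581). With 1 library left out the change was between 0.09 (without control replicate 3) and 0.48 (without knockdown replicate 1), and it was 0.10 without knockdown replicate 2. HPR, a haptoglobin-related gene with 95.6% identity over 1044 aligned coding bases, had 2.43 ± 0.56 and 2.18 ± 0.78 FPKM (-0.13, adjusted p = 0.748), so reads assigned to either are uncertain. HP exceeded HPR in all libraries, by 2.42 to 3.15 times in control and 3.41 to 4.36 times in knockdown libraries.

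SAA1 and SAA2 encode the acute phase forms of serum amyloid A, an apolipoprotein of high density lipoprotein. SAA1 was at 2.62, 3.01 and 2.48 FPKM in the controls, and at 2.38, 3.05 and 1.41 after knockdown, with overlapping groups (log2 change -0.20, SE 0.21, limma adjusted p = 0.559). Without knockdown replicate 2 it was -0.37, and without knockdown replicate 3 it was 0.001. SAA2 was at 5.69, 4.50 and 2.50 FPKM in the controls and at 1.89, 2.27 and 2.00 after knockdown. All knockdown values of SAA2 were below all control values, with control replicate 3 close to them, and the difference did not pass (-0.73, SE 0.24, limma adjusted p = 0.0881). It passed in 1 of 13 alternatives, the fit without control replicate 3 (-0.99, adjusted p = 0.0487). Without knockdown replicate 2 the change was -0.78 (adjusted p = 0.171). The open reading frames of SAA1 and SAA2 are identical at 358 of 369 bases (97.0% identity), so the split of reads between them is uncertain. A joint SAA2-SAA4 entry was under the filter, at 0, 0.76 and 1.31 FPKM in the controls and 0.47, 0 and 0 after knockdown. Its part in the SAA2 values was not tested. SAA4, which encodes a constitutive form made without an acute stimulus, had 26.3 ± 2.60 FPKM in the controls and 18.0 ± 3.25 after knockdown, a difference that did not pass (-0.54, adjusted p = 0.0670).

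HAMP encodes hepcidin. It was listed at 2.22, 2.16 and 0.61 FPKM in the controls, and at 2.40, 0.48 and 0.39 after knockdown. High and low values occurred in both groups, and the spread within each group was wide beside its mean (1.66 ± 0.91 and 1.09 ± 1.14, SD, n = 3). The log2 change was -0.41 with a 95% interval from -1.31 to 0.49 (limma adjusted p = 0.529), which covers a fall as well as a rise. The change was -0.18 without knockdown replicate 3, -0.22 without knockdown replicate 2, -0.74 without control replicate 3 and -0.80 with a pseudocount of 0.1, and HAMP was under the filter in the other fits that left out a library. LBP, the gene of the protein that hands bacterial lipopolysaccharide to CD14, was under the filter. It stood at 0.10, 0.07 and 0.04 FPKM in the controls and at 0.45, 0.29 and 0.23 after knockdown. The knockdown values were all higher at a low level, with 22.8% of the genes in the table below it, and with no filter the adjusted p was 0.129.

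Levels among the 9 genes differed by orders of magnitude. In control libraries ORM1 exceeded SERPINA1, and both exceeded HP, with no overlap between neighbours; HP, SAA2, SAA1, CP, SERPINA3 and HAMP followed, each overlapping the next, and LBP was apart below them. In knockdown libraries SERPINA3 and CP came next after HP, and the lowest CP value lay above the highest SAA1 value. The ratio of SERPINA3 to SAA2 within a library, which does not depend on how libraries were scaled, was 0.25, 0.33 and 0.98 in the controls and 3.23, 2.60 and 3.54 after knockdown. The ratio of CP to SAA2 likewise went from 0.53 ± 0.16 (SD, n = 3) to 2.95 ± 0.55. SERPINA3 and CP were thus below SAA2 in all controls and above it in all knockdown libraries. In control replicate 3, SERPINA3 and SAA2 were nearly equal, at 2.44 and 2.50 FPKM. Both ratios restate the levels given for each gene above, and SAA2 itself did not pass, so they add no separate test. SERPINA1 relative to albumin (ALB) was 0.0958, 0.0899 and 0.0951 in the controls, and 0.0971, 0.134 and 0.136 after knockdown. Only knockdown replicates 2 and 3 stood well above the controls by this measure.

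**Figure D2:**
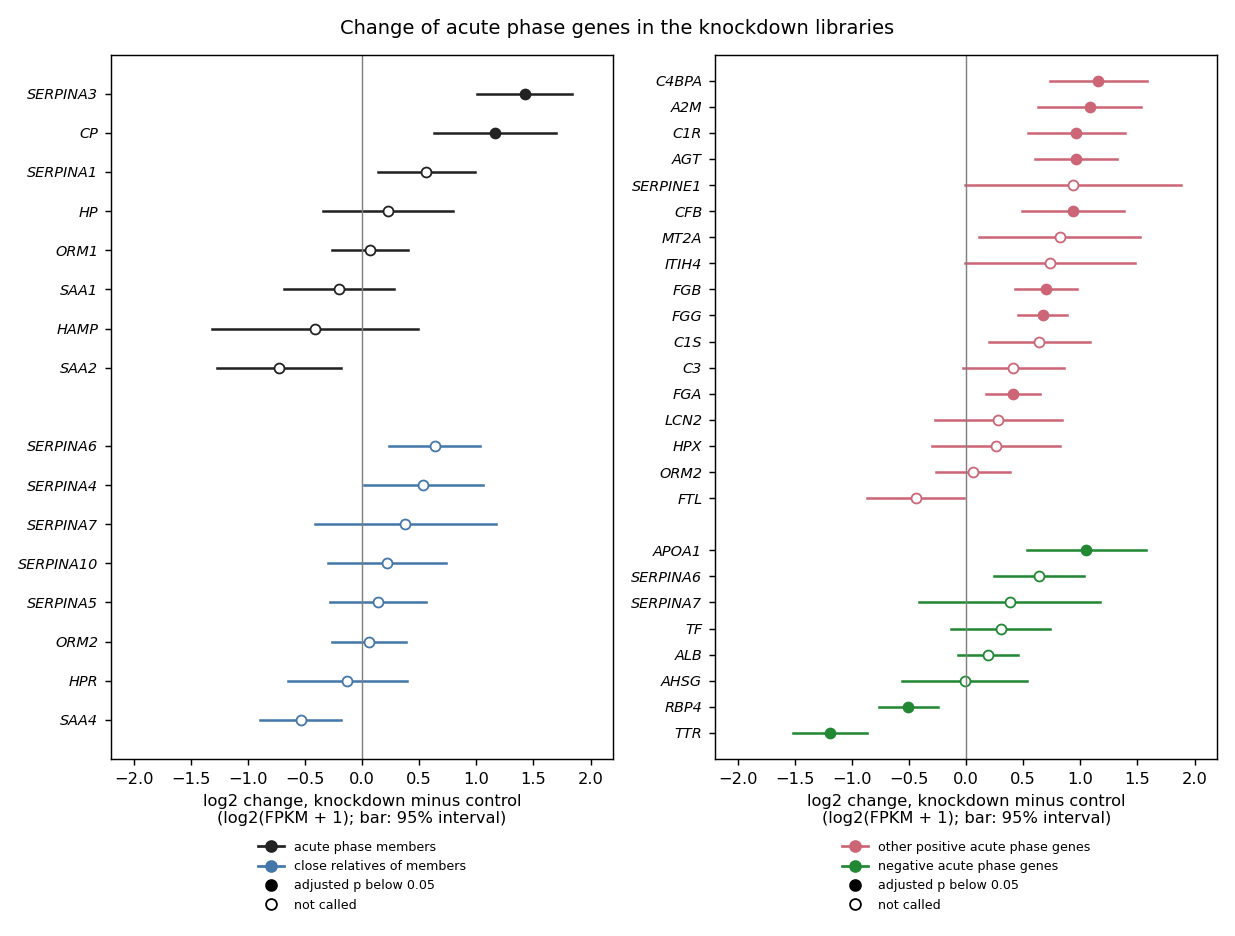
Log2 change (knockdown minus control, on log2(FPKM + 1)) with its unadjusted 95% interval for the acute phase genes tested, their close relatives, other positive acute phase genes and negative acute phase genes; filled points have an adjusted p below 0.05. SERPINA3 and CP are the only filled points in the left panel, while 8 positive and 3 negative acute phase genes are filled in the right panel.

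Over the 6 libraries and 8157 genes with a mean log2 value of at least 3, the genes closest in pattern to the 3 most abundant members were found by Pearson correlation, as a description. For ORM1 these were NPPB, the gene of B-type natriuretic peptide (r = 0.98), and ORM2 (r = 0.97). For SERPINA1 they were GRINA and CBX8 (r = 0.996 and r = 0.995), and for HP they were POP4 and PHC2 (both r = 0.98). The 2 groups and the library scaling enter each of these correlations. CBX8, a Polycomb gene, had 7.92, 6.80 and 7.53 FPKM in the controls and 7.97, 11.4 and 11.9 after knockdown, with knockdown replicate 1 again beside the controls.

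Promoter sequences are shown for SERPINA3, which rose, and for ORM1 and HAMP, which did not pass, so that 4 motifs of the factors named above can be read in them. RefSeq's table (GRCh38.p14) held 4 of the 9 genes: SERPINA1, with 2 starts, SERPINA3, ORM1 and HAMP. The motifs were searched on both strands from 250 bases before to 50 after each start. They were TTCNNNGAA for STAT, TTGCNNAA for C/EBP, CTGGGA for the IL-6 element and GGGNNTTTC for NF-kB. GTTAATNAT, for the liver factor HNF1, was searched as well. The 250 bases before the start follow, 5′ to 3′ on the gene's strand, with matches in capitals. SERPINA3 lies at chr14:94612141-94612390, ORM1 at chr9:114322848-114323097 and HAMP at chr19:35282278-35282527, all on the plus strand.
SERPINA3: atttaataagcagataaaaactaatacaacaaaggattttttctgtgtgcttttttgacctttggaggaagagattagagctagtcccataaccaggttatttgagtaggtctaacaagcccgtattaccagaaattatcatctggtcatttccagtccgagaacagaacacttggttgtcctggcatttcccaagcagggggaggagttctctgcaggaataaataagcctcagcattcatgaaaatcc
ORM1: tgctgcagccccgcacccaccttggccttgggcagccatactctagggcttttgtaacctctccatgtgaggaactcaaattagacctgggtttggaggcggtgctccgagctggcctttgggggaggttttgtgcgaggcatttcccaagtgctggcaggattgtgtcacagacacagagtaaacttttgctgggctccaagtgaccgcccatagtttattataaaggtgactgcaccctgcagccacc
HAMP: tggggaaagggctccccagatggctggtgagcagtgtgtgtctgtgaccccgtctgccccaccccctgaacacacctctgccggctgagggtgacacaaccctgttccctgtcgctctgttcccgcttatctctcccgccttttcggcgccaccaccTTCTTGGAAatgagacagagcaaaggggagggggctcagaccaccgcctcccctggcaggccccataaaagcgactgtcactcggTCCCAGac

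The HAMP window held a STAT match, TTCTTGGAA, that begins at position -93 from the start, and an IL-6 element on the minus strand at -8. The STAT letters occur in 7.66% of the 35116 promoters in the table and the IL-6 element in 33.3%. None of the 4 motifs was matched in the SERPINA3 or ORM1 windows. A single SERPINA1 window held the IL-6 element at both -131 and 29, counted from its start. The window of the other SERPINA1 start held none of the 4 motifs. C/EBP letters were in 10.5% and NF-kB letters in 4.78% of all promoters and in none of these windows. HNF1 letters were in 0.792% of all promoters and likewise in none of these windows. A match of letters is not a measured binding site.

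Positive acute phase genes outside the set included fibrinogen, complement and protease inhibitor genes that rose. Of 17 tested from a list of 21, 8 rose and 0 fell by limma, with a median log2 change of 0.70. At an unadjusted limma p below 0.05, 10 were higher and 1 was lower. Over all genes tested, 4.15% were called higher and 3.94% lower, and at an unadjusted p these shares were 13.4% and 16%. They are the shares to set beside the counts of each list below. Lists share genes, so their counts are not separate. For example, ORM2 stands in this list and among the close relatives, and FGB here and among the hepatocyte markers. TTR and APOA1 stand among those markers and the negative acute phase genes. C4BPA, which encodes a complement inhibitor that binds C4b, went from 3.23 ± 0.69 (SD, n = 3) to 8.45 ± 1.58 FPKM (1.16, adjusted p = 0.0154). AGT, the gene of angiotensinogen, went from 95.9 ± 19.0 to 186 ± 18.2 FPKM (0.96, adjusted p = 0.0159). The fibrinogen genes FGG and FGB rose by 0.67 and 0.70 on the log2 scale (adjusted p = 0.0109 and 0.0188). These 4 genes passed in 9 to 11 of 13 alternatives. The count was 0 without control replicate 2 or without knockdown replicate 2, 3 without control replicate 1 or 3 or without knockdown replicate 3, 11 without knockdown replicate 1 and 3 with no filter on low values.

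Negative acute phase genes, whose output drops in inflammation, went both ways. Of 8 tested, 1 rose and 2 fell, with a median of 0.25. At an unadjusted limma p below 0.05, 2 were higher and 2 lower. TTR, the gene of the thyroid hormone carrier transthyretin, had 29.95, 25.81 and 23.61 FPKM in the controls and 12.66, 10.41 and 9.97 after knockdown (-1.19, adjusted p = 0.00770). RBP4, which encodes the retinol carrier that travels with transthyretin, fell from 914 ± 99.7 to 641 ± 28.2 FPKM (-0.51, adjusted p = 0.0356). APOA1, the main apolipoprotein gene of high density lipoprotein, rose from 62.7 ± 22.1 to 127 ± 20.2 FPKM (1.05, adjusted p = 0.0325). ALB had a log2 change of 0.19 and did not pass (adjusted p = 0.303). TTR passed in 13 of 13 alternatives, RBP4 and APOA1 in 6 each. Without control replicate 2 or 3, or without knockdown replicate 2 or 3, 0 rose and 1 fell; without control replicate 1, 1 rose and 1 fell; and without knockdown replicate 1, 3 rose and 2 fell. Of 8 close relatives of the set tested, 0 rose and 0 fell (limma; 2 higher and 1 lower at an unadjusted p below 0.05). Without knockdown replicate 1, 4 of these rose.

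Among interleukin-6 family ligands and receptors, 2 of 6 tested rose and 0 fell (limma; 4 higher and 1 lower at an unadjusted p below 0.05). LIF, a gp130 ligand, was at 0.46, 0.81 and 0.47 FPKM in the controls and 4.88, 3.72 and 4.52 after knockdown (1.77, SE 0.18, adjusted p = 0.00618). It passed the filter only through the knockdown libraries, so a difference was needed for it to be tested. LIF passed in all 10 alternatives in which it was tested, and was under the filter whenever a knockdown library was left out. The count for the list was then 0 without knockdown replicate 2 or 3 and 1 without knockdown replicate 1, and it was 1 when any single control library was left out and 1 with no filter. IL11RA, the interleukin-11 receptor gene, rose by 1.02 (adjusted p = 0.0277, past the threshold in 7 of 13 alternatives), and IL6ST, the gp130 gene, had 14.3 ± 2.31 and 19.7 ± 0.47 FPKM and did not pass (0.44, adjusted p = 0.0784). IL6 was listed at 0, 0.12 and 0 FPKM in the controls and at 0.44, 0.74 and 1.91 after knockdown, and IL6R, the gene of its specific receptor, stayed below 1 FPKM in all libraries. Both were under the filter. Of 7 JAK and STAT genes, 0 rose and 0 fell (limma; 1 higher and 0 lower at an unadjusted p below 0.05), among them STAT3 with 15.5 ± 2.42 and 17.7 ± 0.84 FPKM (0.19, 95% interval -0.13 to 0.52, adjusted p = 0.399). Without knockdown replicate 1, 2 of the 7 rose, and without knockdown replicate 2, 0 rose and 0 fell.

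Of 14 feedback and target genes of STAT3 tested, 7 rose and 0 fell (limma; 8 higher and 0 lower at an unadjusted p below 0.05), with a median of 0.65. SOCS2 and SOCS1, genes of inhibitors that are induced by cytokine receptors, rose from 2.19 ± 0.35 to 7.61 ± 0.58 FPKM (1.44, adjusted p = 0.00648) and from 4.66 ± 0.26 to 12.4 ± 2.38 FPKM (1.22, adjusted p = 0.0103), each SD with n = 3. SOCS2 passed in 13 of 13 alternatives and SOCS1 in 12, the exception being the fit without control replicate 2 (adjusted p = 0.0508). SOCS3, the inhibitor that acts on gp130, was under the filter, at 0.35, 0.30 and 0.49 FPKM in the controls and 2.40, 1.48 and 0.92 after knockdown. BCL3, a nuclear partner of NF-kB, and the AP-1 gene JUNB rose by 0.83 and 1.59 on the log2 scale; both also answer to NF-kB or to growth factors. The count was 1 without control replicate 2, 4 or 5 without control replicate 1 or 3 or knockdown replicate 2 or 3, 7 without knockdown replicate 1 and 4 with no filter.

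Transcription factor genes moved in both directions: 3 of 18 rose and 3 fell. At an unadjusted limma p below 0.05, 6 were higher and 5 lower, where the shares over all genes tested were 13.4% and 16%. CEBPD, a C/EBP factor induced in the acute phase, went from 63.1 ± 2.92 (SD, n = 3) to 105 ± 14.8 FPKM (0.72, adjusted p = 0.0190), and the gene of the NF-kB subunit RelB, RELB, was higher by 1.98 (adjusted p = 0.0128). CEBPA, the C/EBP factor of resting hepatocytes, fell from 50.5 ± 12.1 to 19.6 ± 7.21 FPKM (-1.36, adjusted p = 0.0247), as did the pioneer factor genes FOXA1 (-0.89) and FOXA3 (-0.68). CEBPB (0.30), HNF4A (-0.33), RELA (0.34) and NFKBIA (1.16, adjusted p = 0.0529) did not pass. In the 6 fits that left out a library, 0 to 5 of the 18 rose and 0 to 3 fell, both counts highest without knockdown replicate 1; with no filter 1 rose and 1 fell. Of the named ones, RELB and FOXA1 passed in 10 of 13 alternatives, CEBPD and CEBPA in 8 and FOXA3 in 7. Among interleukin-1 and tumour necrosis factor receptors and adaptors, 1 of 8 rose and 1 fell, with 2 higher and 2 lower at an unadjusted p. IL1RAP, the shared subunit of the interleukin-1 receptor, rose from 20.9 ± 0.44 to 54.1 ± 12.5 FPKM (1.30, adjusted p = 0.0102), and the adaptor kinase gene IRAK1 fell by 0.58 on the log2 scale. IL1RAP passed in 12 of 13 alternatives and IRAK1 in 6. Without control replicate 2 neither passed. Without control replicate 1 or 3, or knockdown replicate 2 or 3, the list counted 1 that rose and 0 that fell. Without knockdown replicate 1 it counted 2 that rose and 1 that fell.

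**Figure D3:**
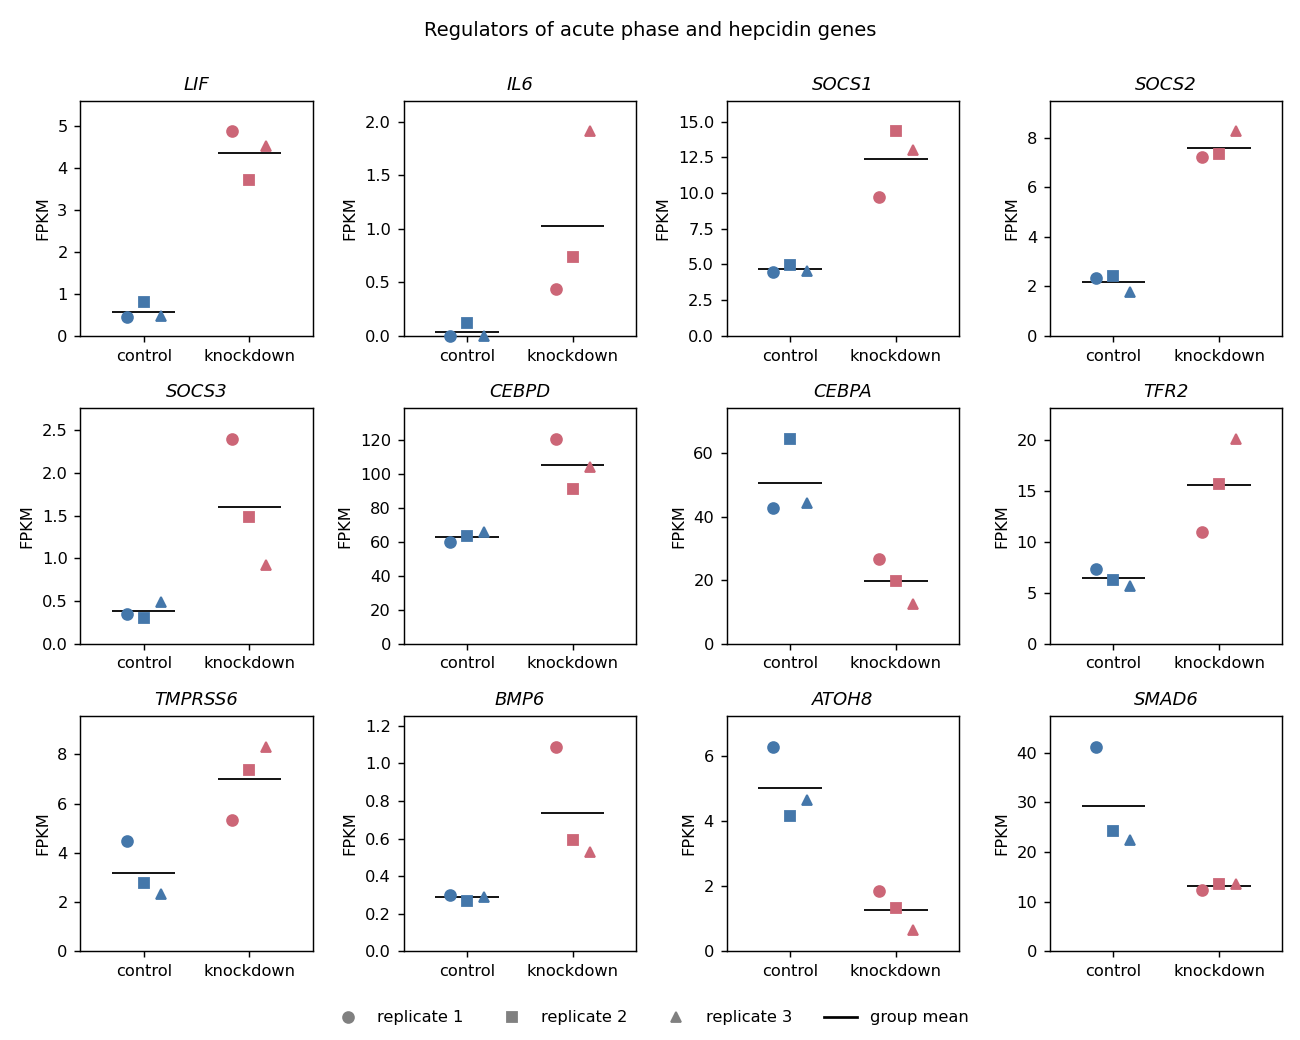
FPKM (linear axis from 0, a separate scale per gene) of 12 genes that act on acute phase or hepcidin transcripts, with 1 symbol per library and a line at the group mean. LIF, SOCS1, SOCS2, CEBPD, TFR2 and TMPRSS6 are higher and CEBPA, ATOH8 and SMAD6 lower in all 3 knockdown libraries; IL6, SOCS3 and BMP6 were under the filter and not tested.

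Around HAMP, which did not pass, genes of iron sensing, hepcidin control and BMP signals went both ways, and few of them were called. Of 24 hepcidin, BMP-SMAD and iron genes tested, 2 rose and 2 fell, with a median of -0.08 and 12 changes above 0. Over all genes tested, 4.15% were called higher and 3.94% lower. At an unadjusted limma p below 0.05, 4 of the 24 were higher and 7 lower, against 13.4% and 16% of all genes. TFR2, a hepatocyte sensor of transferrin iron, was at 7.32, 6.26 and 5.66 FPKM in the controls and 10.96, 15.62 and 20.07 after knockdown (1.13, SE 0.21, adjusted p = 0.0220). TMPRSS6, the protease matriptase-2 that lowers hepcidin, was at 4.49, 2.77 and 2.31 FPKM in the controls and 5.32, 7.35 and 8.32 after knockdown (0.95, SE 0.23, adjusted p = 0.0422). For both genes the groups did not overlap, with knockdown replicate 1 nearest to the controls. ATOH8 and SMAD6, both induced by BMP signals, were lower in all knockdown libraries. ATOH8, a transcription factor gene, fell from 5.04 ± 1.12 (SD, n = 3) to 1.28 ± 0.59 FPKM (-1.42, adjusted p = 0.0159), and SMAD6, an inhibitory SMAD, from 29.3 ± 10.4 to 13.2 ± 0.72 FPKM (-1.05, adjusted p = 0.0279). BMP6, the ligand that reports liver iron, was under the filter at 0.27 to 0.30 FPKM in control and 0.53 to 1.09 in knockdown libraries. Other genes of this list did not pass, among them ID3 (-0.62, limma adjusted p = 0.0626), ID1 (-0.47, 0.101), HFE2 (-0.76, 0.0752) and HFE (-0.55, 0.148). SMAD7 (0.02, 0.935) and BMP2 (0.48, 0.0652) did not pass either. ATOH8 and SMAD6 each passed in 9 of 13 alternatives. With 1 library left out, TFR2 and TMPRSS6 passed only without knockdown replicate 1, the count that rose was 0 in the other fits of this kind (5 without knockdown replicate 1), the count that fell was between 0 and 6, and with no filter both were 0. With a replicate block, 1 rose and 5 fell, and with quantile normalization or scaling to an equal total, 2 rose and 3 fell. With neither trend nor robust moderation, 1 rose and 2 fell. The median turned to 0.03 without control replicate 1, to 0.006 without control replicate 2, and to 0.02 when libraries were scaled without mitochondrially encoded genes.

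**Figure D4:**
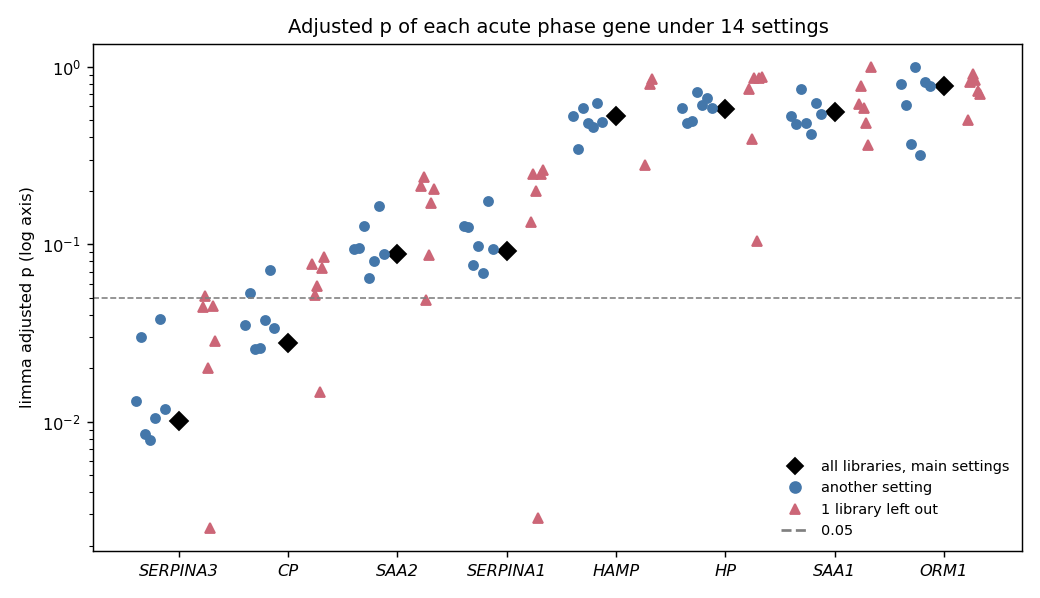
Limma adjusted p (log axis) of the 8 genes tested, with all libraries and the main settings (diamond), with another setting (circle, 7 per gene) and with 1 library left out (triangle, up to 6 per gene); the dashed line is 0.05. SERPINA3 stays at or below 0.0508 throughout, CP crosses the line in 7 of 13 alternatives, and SERPINA1 and SAA2 each cross it in 1.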

How the data were processed

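RNA-seq of 3 control and 3 knockdown libraries was analysed from 1 deposited table with 1 value per gene and library. The unit of the deposited values is not named; they were treated as FPKM, that is, as scaled by the authors to transcript length and library size, because values multiplied by length summed more evenly over libraries than the values themselves. TPM of an incomplete gene set would look alike. Read numbers cannot be derived from them, so the depth is unknown, and summed values were 851418 to 975501 per library. Per the submitters' processing notes, the tools included RSEM 1.1.17 and Bowtie2 2.2.6, with a mouse genome build named although the gene identifiers are human; gene coordinates are therefore not given, and the promoter coordinates are RefSeq's own. All 6 value columns were mapped to samples by name.

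Genes with at least 1 FPKM in at least 3 libraries (13696 of 23344) were tested on log2(FPKM + 1) with limma 3.58.1 (R 4.3.3; trend and robust moderation), two-sided, knockdown against control, without covariates, with Benjamini-Hochberg adjustment over all of them and a threshold of 0.05. An exact permutation test of 3 against 3 libraries cannot go below p = 0.1 and was not used. On simulated data for this comparison, in 10 sets of 13696 genes where 200 well expressed ones (mean log2 level 3 or more) carried a known change, 23.6% of 1.5-fold, 64.5% of 2-fold and 95.6% of 4-fold changes were recovered. The changes were added on the log2(FPKM + 1) scale. SERPINA3, CP, SAA2, SAA1 and HAMP had mean log2 levels of 1.14 to 2.22, so these rates do not cover them. The 13 alternatives were another pseudocount (0.1), no filter, quantile normalization, 2 rescalings, plain moderation, a replicate block and each library left out. Named genes were all members and, per list, up to 4 genes with the lowest adjusted p among those called, plus a fixed choice of pathway genes and relatives named whatever their result. The members and the 12 lists were chosen with earlier results of these data known, so counts over them are descriptions. Open reading frames were the longest ones in GENCODE protein-coding transcripts, aligned with Biopython 1.88.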

Additional observations from a re-analysis of the deposited data

How the results depend on the processing

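The number of acute phase genes of the set that rose, 2 with all libraries, was 1 when low values were not filtered and 1 with the replicate block, and ranged from 0 to 3 when 1 library was left out. The number that fell, 0 with limma and 1 at an unadjusted p below 0.05, ranged from 0 to 1. Their median log2 change of 0.15 ranged from 0.029 to 0.484, partly over 7 genes. CP was lost with the replicate block (adjusted p = 0.0529), which changed the call of no other of the 8 genes and took the calls over all genes from 1107 to 861. Same-numbered libraries correlated at 0.053, 0.105 and 0.135 in their deviations from the group means and others at -0.21 to 0.0935. Values this few and this weak cannot settle whether the replicate numbers pair the libraries. ORM1 turned to -0.0029 with scaling to an equal total and ranged from -0.0408 to 0.171 without 1 library and HP from 0.0947 to 0.484; SAA1 ranged from -0.373 to 0.0012 and HAMP, tested in 3 of these fits, from -0.738 to -0.179. Calls over all genes ranged from 56 to 3284 without 1 library, were 221 with no filter, and were 727 with neither trend nor robust moderation. The cause of these shifts was not tested. How small a change 2 libraries in a group can resolve was not tested.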
